A study of Homo sapiens with 4 samples.

Results

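The genes described here are 10 inflammatory cytokines and chemokines: IL1A, IL1B, CCL20, CXCL1, CXCL2, CXCL3, IL8 (now CXCL8), IL6, LIF and CSF2. They were chosen by name, and all 10 were found among the 37810 gene names of the deposited table. They were measured in MCF10A, an immortalized and non-tumorigenic mammary epithelial line, and in MDA-MB-231, a metastatic breast cancer line. The study asked which genes FOXF2, a forkhead transcription factor, controls in normal-like and in metastatic breast epithelial cells. Each line was transfected by lipid reagent with control siRNA or with FOXF2 siRNA, both at 20 nM, and harvested for RNA 48 h later. The 4 groups were therefore MCF10A with control siRNA, MCF10A with FOXF2 siRNA, MDA-MB-231 with control siRNA and MDA-MB-231 with FOXF2 siRNA, each read on 1 Illumina array. Control cells had also been transfected, so no untransfected level was measured. Each line was grown in the medium recommended for it, so line and medium cannot be told apart. The labels do not say how many siRNA sequences were used or whether cultures were repeated.

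Secreted cytokines and chemokines carry inflammatory signals between cells. IL1A and IL1B bind the interleukin-1 receptor and switch on NF-kappaB, a transcription factor that in turn drives CCL20, the CXC chemokines, IL6 and the interleukin-1 genes themselves. CXCL1, CXCL2, CXCL3 and IL8 attract neutrophils through CXCR2, and CCL20 attracts CCR6-bearing lymphocytes and dendritic cells. IL6 and LIF signal through receptors that share the IL6ST subunit and activate STAT3, and CSF2 encodes the granulocyte-macrophage colony-stimulating factor. Epithelial cells can make all of these when stressed or stimulated, and many breast cancer lines release some of them constantly.

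Sequence near the gene start is shown for the 6 members that hold an NF-kappaB-like motif there, because this regulatory element is the best known one that they share. RefSeq windows (GRCh38.p14), from 250 bases before to 50 bases after each start, were found for 9 members, and LIF had none in the table used. The motif searched was GGNNTTTCC on both strands. It lay in the windows of CCL20, CXCL1, CXCL2, CXCL3, IL8 and IL6, and in 6.26% of all 35116 windows. The lines below give 49 bases in the direction of each gene, with the 9 motif bases in capitals.
CCL20 at chr2:227813743-227813791, plus strand: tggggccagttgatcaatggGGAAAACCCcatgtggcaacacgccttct
CXCL1 at chr4:73869295-73869343, plus strand: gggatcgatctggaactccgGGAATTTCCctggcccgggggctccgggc
CXCL2 at chr4:74099244-74099292, minus strand: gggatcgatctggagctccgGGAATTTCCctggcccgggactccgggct
CXCL3 at chr4:74038739-74038787, minus strand: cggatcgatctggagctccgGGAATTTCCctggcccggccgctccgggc
IL8 at chr4:73740458-73740506, plus strand: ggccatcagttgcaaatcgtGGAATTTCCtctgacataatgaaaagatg
IL6 at chr7:22727108-22727156, plus strand: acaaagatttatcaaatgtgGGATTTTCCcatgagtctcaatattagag

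In these windows the motif reads the same in CXCL1, CXCL2, CXCL3 and IL8, differs in IL6, and in CCL20 stands on the opposite strand. CXCL1, CXCL2 and CXCL3 are paralogs, and their starts are alike beyond the motif. Over 101 bases centred on it and aligned without gaps, CXCL1 and CXCL3 were identical at 92.1%, CXCL1 and CXCL2 at 76.2%, and CXCL2 and CXCL3 at 71.3%. IL8 shared 32.7% with CXCL1 in the same alignment. Each of CXCL1, CXCL2 and CXCL3 held a further match of the motif nearer to the start. The AP-1 motif TGANTCA lay in the windows of IL1A and IL8 and in 7.71% of all windows, and TATAAA in those of CCL20, IL8 and IL1A and in 11.5%. The forkhead motif GTAAACA was in 3.42% of all windows and in no member's window, which says only that these letters are not there.

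Across the 4 arrays the members fell into sets by line, as the plot of their intensities shows. IL1A, IL1B, CCL20 and CXCL2 were above background only on the MCF10A arrays, and LIF and CSF2 only on the MDA-MB-231 arrays. The share of all names above background in 1 line only was not computed, so whether such sets are unusual was not tested. CXCL1 was above background on all 4 arrays, but was far brighter in MCF10A. IL8 was above background on all 4 at intensities of like size, IL6 on 3 and CXCL3 on 1. An intensity counted as above background past the upper 1% of each array's background, which was 122 on both MCF10A arrays and 121 on both MDA-MB-231 arrays. Each gene was compared only with itself across arrays, since intensities of different probes are not on a shared scale.

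**Figure D1:**
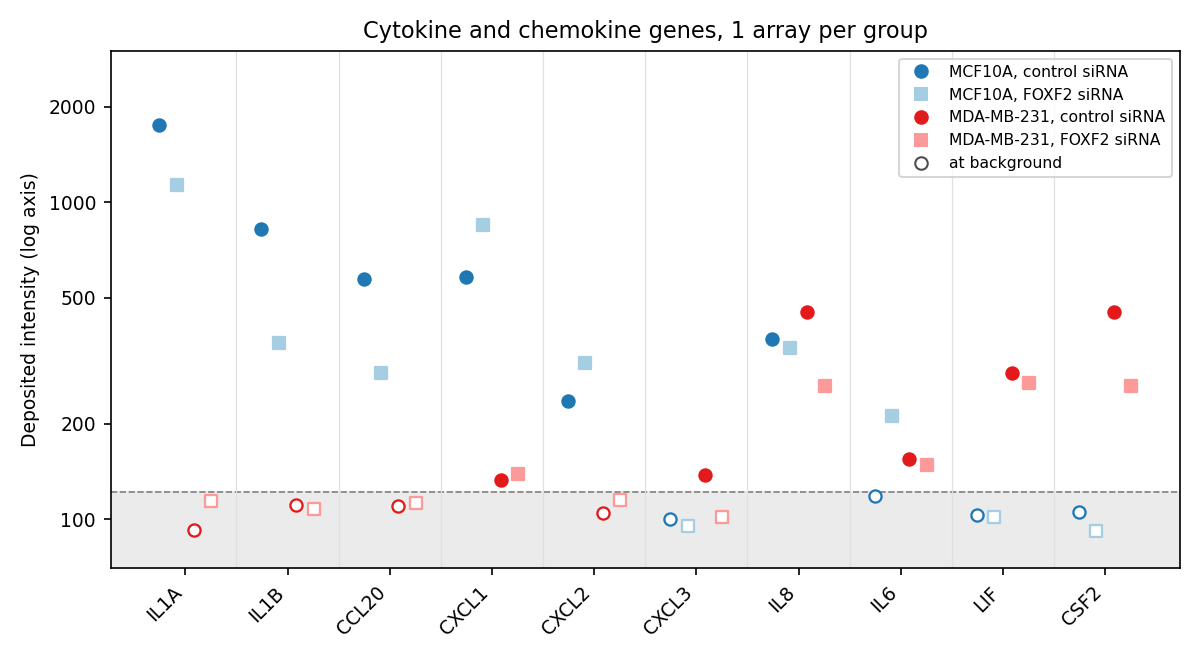
Deposited intensity on a log axis for each of the 10 genes, with 1 point per array, circles for control siRNA and squares for FOXF2 siRNA, blue for MCF10A and red for MDA-MB-231. Open points lie in the grey band at background, below the highest of the array limits (122); the IL1A points of MCF10A lie at 1748 and 1135 while those of MDA-MB-231 lie in the band.

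FOXF2, the targeted gene, went from an intensity of 241 to 143 with its siRNA in MCF10A and from 259 to 123 in MDA-MB-231, which accords in each line with the labels. All 8 epithelial markers examined, among them KRT5, KRT14 and CDH1, were above background on the MCF10A arrays, and 3 of them, EPCAM, KRT8 and KRT18, on the MDA-MB-231 arrays. Between 36.8% and 37.4% of all names were above background on an array. Blood cells, a rich source of these cytokines in tissue, were checked with 8 markers. PTPRC, LYZ, CD3E and TYROBP were at background on all 4 arrays, and ITGAM was above it on the MDA-MB-231 control array alone (126). CD14, CD68 and CSF1R were above it in each line, at 535, 338 and 183 in MCF10A with control siRNA and at 128, 853 and 147 in MDA-MB-231 with control siRNA. CSF1R was at 347 in MCF10A with FOXF2 siRNA, and CD14 was at 115, in the background, in MDA-MB-231 with FOXF2 siRNA. The part of these markers in the results below was not tested. The 8 intensities summed to 1590.2 and 1864 in MCF10A and to 1678 and 1858 in MDA-MB-231 with control and FOXF2 siRNA.

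The interleukin-1 genes and CCL20 were above background in MCF10A alone. IL1A, the alpha form of interleukin-1, had intensities of 1748 and 1135 in MCF10A with control and FOXF2 siRNA, and of 92.5 and 114 in MDA-MB-231. IL1B, the secreted beta form, had 821 and 359.5 in MCF10A and 111 and 108 in MDA-MB-231. CCL20 had 572 and 288 in MCF10A and 110.5 and 112 in MDA-MB-231. For each of the 3 genes both MCF10A arrays were above background and both MDA-MB-231 arrays were at background. The share of all names with this pattern was not computed. Fewer cells that express a gene and less RNA per cell cannot be told apart in such cultures. Where a line was at background its level is only an upper limit, so a bound of the fold was computed over the mean log2 values of the 2 arrays of each line. The bound depends on whether background is corrected, and is given both ways. With the correction, IL1A was at least 37.7-fold, IL1B at least 12.8-fold and CCL20 at least 8.95-fold lower in MDA-MB-231. From the deposited intensities without correction these were at least 11.6-fold, 4.49-fold and 3.35-fold.

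Of the CXC chemokines, CXCL1 and CXCL2 followed the same order. CXCL1 had intensities of 581 and 844 in MCF10A and of 133 and 139 in MDA-MB-231, all above background, though the latter pair only by a little. Its mean was 12.3-fold lower in MDA-MB-231 on the background-corrected scale and 5.15-fold lower without correction. CXCL2 had 236 and 310.3 in MCF10A against 104 and 115 in MDA-MB-231, where it was at background. It was at least 5.22-fold lower with background correction and at least 2.23-fold lower without. CXCL3 did not follow its paralogs. It had 100.2 and 95.1 in MCF10A and 138 and 101 in MDA-MB-231, so that the MDA-MB-231 control array alone was above background and no line order could be given. Cross-hybridization among these similar genes was not tested.

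LIF and CSF2 had the opposite order. CSF2 had intensities of 450.2 with control and 264 with FOXF2 siRNA in MDA-MB-231, and of 106 and 91.9 in MCF10A. LIF, which maintains stem cells in the mouse and acts through STAT3, had 289 and 269 in MDA-MB-231 and 103 and 102 in MCF10A. Neither gene rose above background in MCF10A. With background correction CSF2 was at least 7.22-fold and LIF at least 5.47-fold higher in MDA-MB-231, and without it at least 2.83-fold and 2.29-fold.

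The differences between lines were tested with limma over all 4 arrays, with siRNA as a term, among 20747 names above background on at least 1 array. Called were an adjusted p under 0.05 with a log2 difference of 1 or more. By this rule 5 members were lower in MDA-MB-231 than in MCF10A, against 5.95% of all names tested, and 2 were higher, against 5.75%. IL1A had a fitted log2 difference of -5.78 (SE 0.26, limma adjusted p = 4.64e-102), IL1B of -4.11 (SE 0.30, adjusted p = 5.09e-40) and CCL20 of -3.53 (SE 0.32, adjusted p = 8.46e-27). These fits use the values of arrays at background as they stand, so their sizes also depend on the background correction. CXCL1 had -3.63 (SE 0.27, limma adjusted p = 3.44e-40) and CXCL2 -2.79 (SE 0.35, adjusted p = 8.57e-14). CSF2 was higher by 3.55 (SE 0.34, limma adjusted p = 3.44e-23) and LIF by 3.09 (SE 0.36, adjusted p = 4.31e-16). The 2 siRNA arrays of a line stood in for its replicates, and the spread behind each p came from genes of like brightness alone. With each gene's own spread none of the 7 passed (lowest adjusted p = 0.44 over the 10 members, 3 with an unadjusted p under 0.05).

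**Figure D2:**
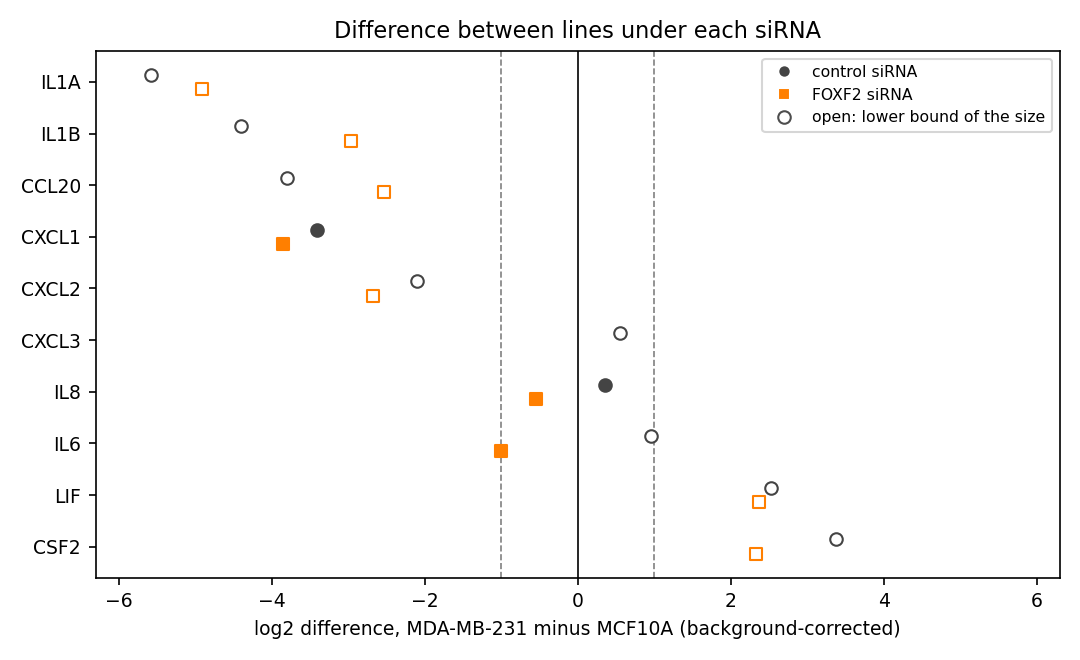
Log2 difference of MDA-MB-231 minus MCF10A for each gene on the background-corrected scale, as circles under control siRNA and squares under FOXF2 siRNA; dashed lines mark 2-fold. Open symbols are bounds against an array at background, and IL8 and IL6 lie on opposite sides of 0 under the 2 siRNAs.

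Taken under each siRNA alone, the line order of these 7 genes was the same. This is no separate check, since the genes were called from the same 4 arrays. With control siRNA, 5 members were at least 2-fold lower and 2 at least 2-fold higher in MDA-MB-231, against 7.66% and 7.76% of the names compared. Without background correction 4 were lower, as CXCL2 then differed by at least -0.96, and with a looser background limit (upper 5%) 3 were higher, with IL6 added. With FOXF2 siRNA it was 6 and 2, against 8.01% and 7.92%, and the added member was IL6. IL6 only just reached the rule, at 2.003-fold, and the log2 ratio of its deposited intensities was -0.51. The same counts rest on single arrays, so they have no replicate check.

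IL8 and IL6 were not called between the lines over the 4 arrays. IL8 had intensities of 369.9 and 346 in MCF10A and of 449 and 264 in MDA-MB-231. The MCF10A pair lay inside the MDA-MB-231 pair, and the fitted log2 difference between lines was -0.10 (SE 0.24, limma adjusted p = 0.849). IL6 had 119 and 212 in MCF10A and 155 and 149 in MDA-MB-231, where the MCF10A pair enclosed the other. Its fitted difference was 0.03 (SE 0.36, limma adjusted p = 0.963). Under control siRNA the difference between lines was 0.36 for IL8 and at least 0.96 for IL6, with MDA-MB-231 higher. Under FOXF2 siRNA it was -0.55 for IL8 and -1.002 for IL6, with MDA-MB-231 lower. Among the 1000 names nearest in mean log2 value, the robust SD of line differences was 0.75 (control) and 0.72 (FOXF2 siRNA) for IL8. Both IL8 differences were smaller than that spread. For IL6 under FOXF2 siRNA the robust SD was 0.83, and its difference was -1.21 in units of it. For CXCL3 the fitted difference was 0.68 (SE 0.64, limma adjusted p = 0.606).

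With FOXF2 siRNA in MCF10A, members differed in both directions. The comparison rests on 1 array per siRNA, so the size of each difference was described and not tested. IL1B and CCL20 were at least 2-fold lower and IL6 at least 2-fold higher, against 1.14% and 1.71% of 16506 names compared. IL1B was 2.69-fold lower (log2 difference -1.43) and CCL20 was 2.41-fold lower (-1.27). These were the 15th and the 26th lowest of 11316 names above background on both arrays. IL1A was 1.58-fold lower (-0.66). For genes of like brightness, the 1000 nearest in mean log2 value, the robust SD of the log2 differences was 0.33 for IL1B and CCL20 and 0.26 for IL1A. In units of that spread the differences were -4.37 for IL1B, -3.85 for CCL20 and -2.53 for IL1A.

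The neutrophil-attracting CXCL1 and CXCL2 differed the other way in MCF10A. CXCL1 was 1.53-fold higher with FOXF2 siRNA (log2 difference 0.61) and CXCL2 1.499-fold higher (0.58), which were 1.95 and 1.54 times the spread of genes of like brightness. Neither reached 2-fold. IL6 went from 119, at background, to 212, which is at least 3.56-fold higher after background correction (log2 difference of at least 1.83). The ratio of the deposited intensities was 1.78. IL8 had a difference of -0.13, within that spread, and CXCL3, LIF and CSF2 were at background on both arrays. The interleukin-1 genes and CCL20 thus stood lower and CXCL1, CXCL2 and IL6 higher with FOXF2 siRNA in these cells. The NF-kappaB-like motif shown above was in the windows of CCL20, CXCL1, CXCL2, IL8 and IL6. It was in no window of IL1A or IL1B, which says only that these letters are not there. The part of this motif in the differences was not tested.

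**Figure D3:**
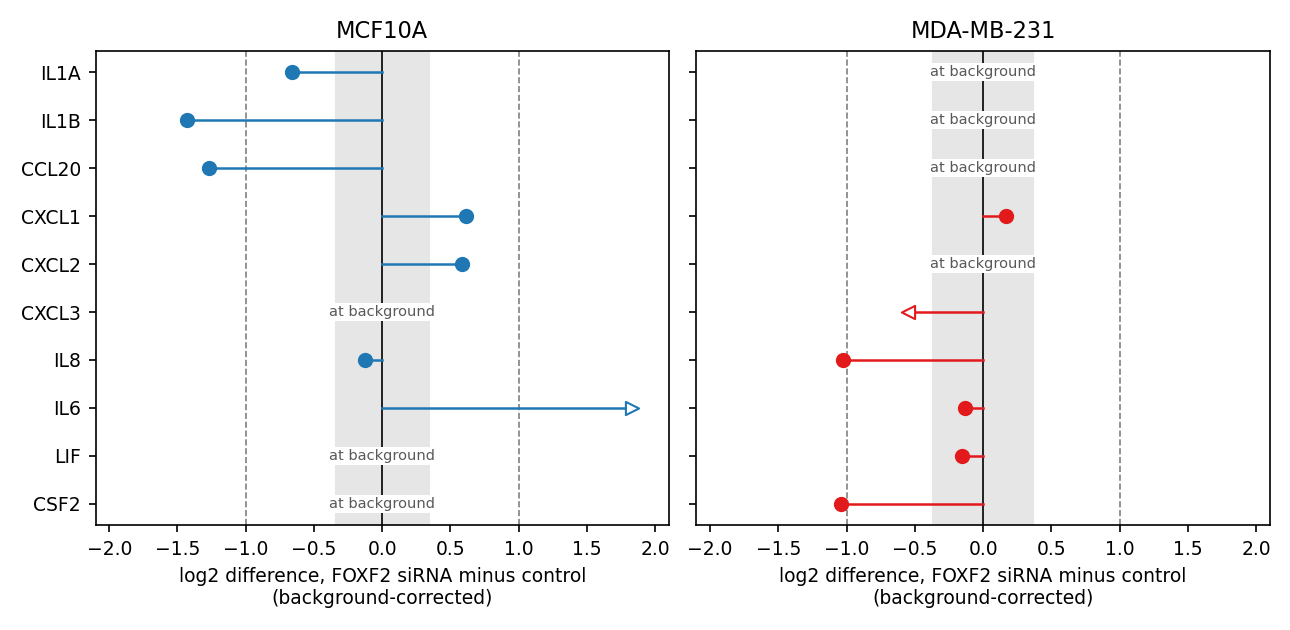
Log2 difference of FOXF2 siRNA minus control siRNA for each gene in MCF10A (left) and MDA-MB-231 (right), on the background-corrected scale, with dashed lines at 2-fold. Filled circles are measured on both arrays and open arrowheads are bounds; the grey band is 1 robust SD of the differences of all names measured on both arrays (0.34 and 0.37).

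In MDA-MB-231 the members at least 2-fold lower with FOXF2 siRNA were CSF2 and IL8, against 1.38% of 16774 names compared. None was 2-fold higher, against 1.2%. CSF2 was 2.05-fold lower (log2 difference -1.04) and IL8 2.04-fold lower (-1.03). In units of the robust SD of 0.38 among genes of like brightness these were -2.73 and -2.71, and they were the 90th and the 94th lowest of 11398 names above background on both arrays. CXCL3 went from 138 to background, a difference of at least 1.47-fold (log2 difference -0.55, and -0.18 without background correction). LIF, IL6 and CXCL1 had differences of -0.15, -0.13 and 0.17, all smaller than that spread for their brightness (0.38, 0.53 and 0.51). IL1A, IL1B, CCL20 and CXCL2 were at background on both arrays, so no response could be measured for them in this line. Both calls sit at the edge of the 2-fold rule: without background correction the differences were -0.77 for CSF2 and IL8, and in MCF10A those of CCL20 and IL6 were -0.99 and at least 0.80.

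Only CXCL1 and IL8 were above background on all 4 arrays, so only for them could the responses of the lines be set side by side. The IL8 response was -0.13 in MCF10A against -1.03 in the cancer line, a difference of -0.90. CXCL1 differed by 0.61 and 0.17, in the same order. For IL6 the response was at least 1.83 in MCF10A and -0.13 in MDA-MB-231. With 1 array per group, no gap between the lines could be tested.

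Averaged over the lines in limma, with line as a term, none of the 10 members was called for FOXF2 siRNA (adjusted p under 0.05). Of all names, 0.13% were called higher and 0.0868% lower. In simulated data this test recovered 27.7% of log2 changes of 1, so a gene not called may still have changed. IL1B, IL6 and IL8 had an unadjusted p under 0.05. IL1B had a fitted log2 difference of -0.78 (SE 0.30, limma adjusted p = 0.549), IL6 of 0.91 (SE 0.36, adjusted p = 0.599) and IL8 of -0.58 (SE 0.24, adjusted p = 0.665). The average joins a line with signal and a line at background for IL1B, IL1A, CCL20, CXCL2, CSF2 and LIF. Without background correction IL1B passed (-0.62, adjusted p = 0.0441).

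Receptors of the members were examined next. Of 11 receptor genes found in the table, IL6ST, IL1R2 and CSF2RB were at background on all 4 arrays. Among all 37810 names, 20747 were above background on at least 1 array. CCR6, the receptor of CCL20, had intensities of 6842 and 6320 in MCF10A and of 7106 and 5837 in MDA-MB-231, and CSF2RA, the binding subunit for CSF2, had 847, 904, 1065 and 767 in the same order. IL1RAP, the accessory chain of the interleukin-1 receptor, had 189, 225, 146 and 150. No receptor gene was 2-fold different with FOXF2 siRNA in either line or between the lines under control siRNA. Under FOXF2 siRNA, IL1RAP was 2.16-fold lower in MDA-MB-231. Of 8 tested, limma called none between lines, where a log2 difference of 1 or more was also required, and none for FOXF2 siRNA. At an unadjusted p under 0.05 there were 2 and 0.

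Genes that process and relay interleukin-1 differed between lines in part. Counts of called genes in this and the next lists stand against the 5.95% lower and 5.75% higher of all names tested. CASP1, the protease that releases active IL1B, was lower in MDA-MB-231, with intensities of 492 and 473 in MCF10A and background values of 110 and 102 there (fitted log2 difference -4.04, limma adjusted p = 2.41e-36). PYCARD, the inflammasome adaptor, was lower as well, with 205 and 225 in MCF10A and background values of 99.9 and 116 in MDA-MB-231 (-2.32, limma adjusted p = 3.59e-08). These 2 were the called genes of 11 tested, and IL1RN, the natural antagonist, was at or near background on every array (110 to 127). For FOXF2 siRNA limma called none of the 11 (1 at an unadjusted p under 0.05), and none was 2-fold different in either line.

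The NF-kappaB and C/EBP list held 19 genes, all tested between lines, of which 4 were lower and 2 higher in MDA-MB-231. CEBPD, a C/EBP factor that acts with NF-kappaB at cytokine genes, was lower by the largest amount of the list (3348 and 5567 against 420 and 488, fitted log2 difference -3.53, limma adjusted p = 7.44e-70). NFKBIA, which holds NF-kappaB in the cytoplasm and is itself its target, had -1.43 (limma adjusted p = 5.06e-13). MAP3K14, the kinase of the non-canonical pathway, was higher by 1.498 and IKBKG, the regulatory subunit of the IkappaB kinase, by 1.49 (limma adjusted p = 4.83e-05 and 4.48e-13). None of the 19 was 2-fold different with FOXF2 siRNA in either line, and the median difference was 0.11 in either line, against -0.003 (MCF10A) and -0.001 (MDA-MB-231) over all names. With FOXF2 siRNA CEBPD had the largest difference of the list in MCF10A (0.75), while NFKBIZ, an NF-kappaB cofactor for IL6, and NFKB1 had -0.78 and -0.68 in MDA-MB-231.

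Of 16 other NF-kappaB targets tested between lines, 5 were lower and 1 was higher in MDA-MB-231. The higher one was PLAU, the urokinase gene, which had the largest difference of the list. It had 1145 and 856 in MCF10A against 14878 and 6207 (fitted log2 difference 3.40, limma adjusted p = 4.94e-72). TNFAIP3 and TNIP1, feedback inhibitors of the pathway, had fitted log2 differences of -1.33 and -1.29, BIRC3 of -1.45 and the superoxide dismutase SOD2 of -2.94 (limma adjusted p = 0.000145, 8.69e-10, 4.04e-09 and 5.25e-37). For FOXF2 siRNA, SOD2 rose by 0.90 and PLAU fell by 0.87 (limma adjusted p = 0.0312 and 0.00417). Both calls were lost with an untrended prior and with each gene's own spread. In MCF10A, where IL1B and CCL20 were lower, the gelatinase MMP9 was lower (-1.47) and SOD2 higher (1.37). MMP9 went from 211 to 132, near the background limit of 122, so the size of its difference depends on the background correction.

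Regulators of AU-rich mRNAs were compared because transcripts of IL1B, IL6, IL8, CXCL1 and CSF2 carry such elements. Of 13 tested, 5 were called lower in MDA-MB-231 and none was called higher. ELAVL1 and KHSRP were 2.47-fold and 2.21-fold higher there under control siRNA, but their fitted log2 differences of 0.95 and 0.70 were under 1. ZC3H12A, the RNase regnase-1 that degrades IL6 mRNA, had 761 and 771 in MCF10A against 166 and 191 (fitted log2 difference -2.90, limma adjusted p = 3.74e-30). ZFP36, tristetraprolin, had 1142 and 1518 against 336 and 366 (-2.22, limma adjusted p = 1.51e-23). DUSP1, a phosphatase of the p38 pathway, had -2.20, ZFP36L2 -1.79 and ZFP36L1 -1.08 (limma adjusted p = 9.67e-30, 1.89e-11 and 6.91e-07). None of the 13 was 2-fold different with FOXF2 siRNA in either line, with a median of 0.07 (MCF10A) or -0.14 (MDA-MB-231), and limma called none (0 at an unadjusted p under 0.05). In the JAK and STAT3 list, SOCS3, a feedback inhibitor of IL6 signalling, was the 1 gene of 7 called between lines (higher by 1.39, limma adjusted p = 0.00587), and none was 2-fold different with FOXF2 siRNA.

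**Figure D4:**
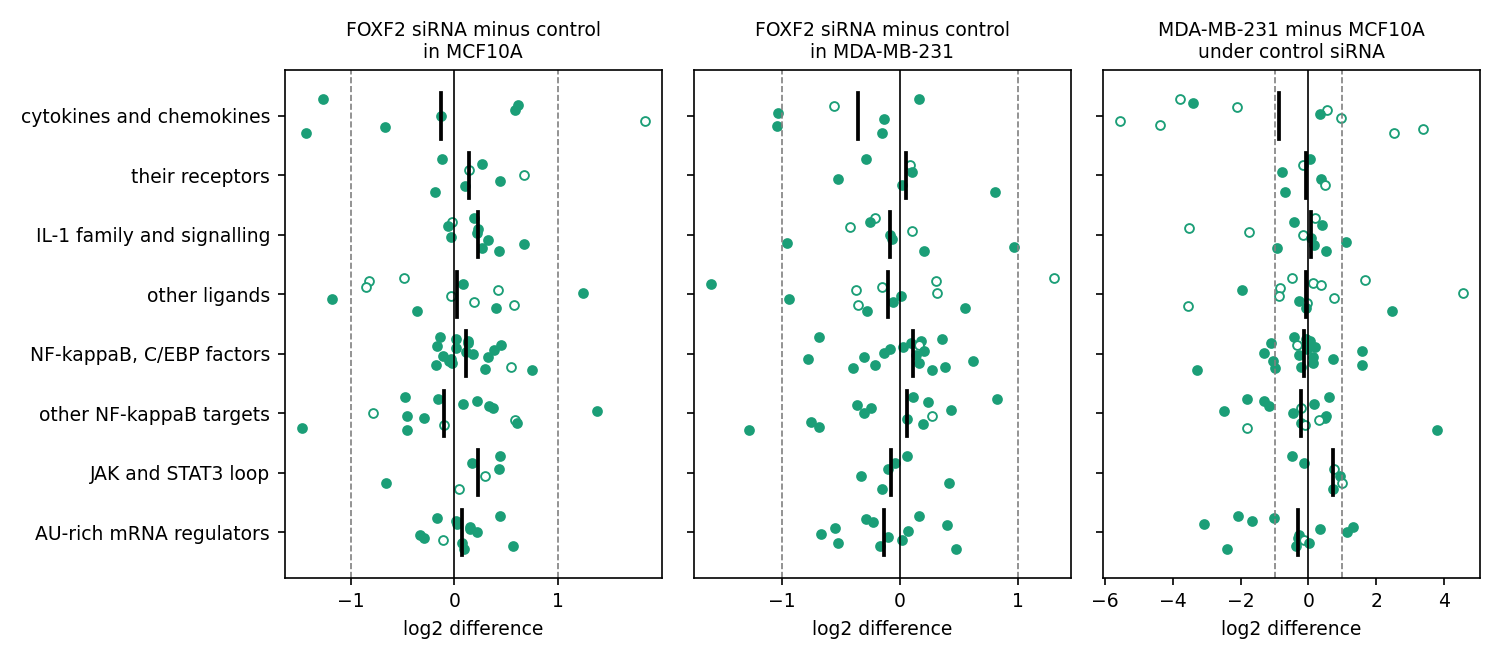
Log2 differences of the 10 genes and of 7 related lists, with 1 point per gene above background on at least 1 of the 2 arrays compared; open points are bounds, thick bars are medians over all points, and dashed lines mark 2-fold. For the members the median was -0.13 over 7 points with FOXF2 siRNA in MCF10A and -0.35 over 6 in MDA-MB-231. Between the lines under control siRNA it was -0.87 over 10 points, with 5 on each side of 0. Over members measured on both arrays the medians were -0.40, -0.15 and -1.52 in the same order.

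Several members are neighbours in the genome, and some of their neighbours were at background. Being at background on all 4 arrays was common, since only 20747 of all 37810 names were above it on at least 1. IL8, CXCL1, CXCL3 and CXCL2 lie on chromosome 4 among other CXC chemokine genes in the RefSeq order. CXCL6, PF4 and PPBP, which lie among them, were at background on all 4 arrays. PF4V1 was above it on the MCF10A control array (135) and the MDA-MB-231 FOXF2 siRNA array (125), and CXCL5 was above it on the MDA-MB-231 control array alone (132). IL1A and IL1B are adjacent on chromosome 2. Of the family members that follow them there, IL36G, IL36A, IL36B and IL1F10 were at background on all 4 arrays. IL37 was above background in MDA-MB-231 alone (195 and 147). IL36RN was above it on the control array of MCF10A (122) and of MDA-MB-231 (133), and IL1RN on the MDA-MB-231 control array alone (127). CSF2 has IL3 beside it on chromosome 5 and LIF has OSM beside it on chromosome 22, and neither IL3 nor OSM was above background on any array. Outside the chemokine cluster, MTHFD2L, next to CXCL2, had intensities of 465 and 458 in MCF10A and of 229.5 and 249 in MDA-MB-231.

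**Figure D5:**
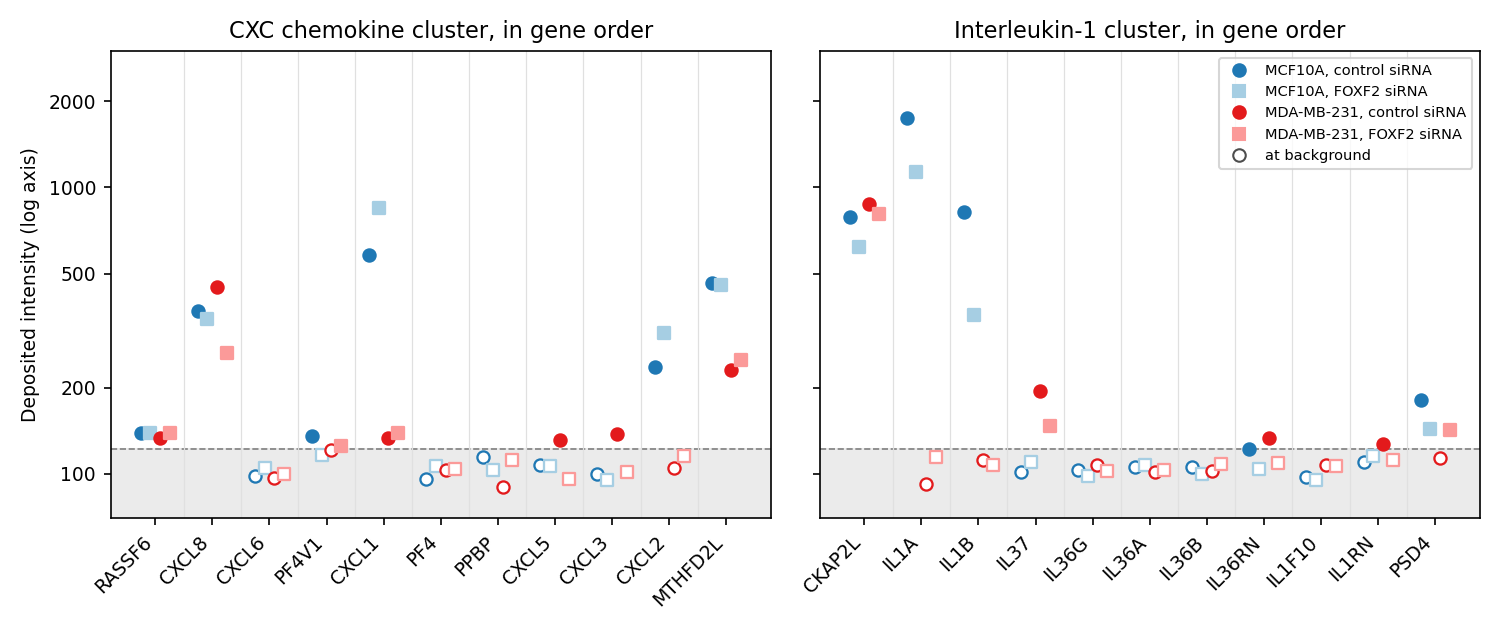
Deposited intensity on a log axis for protein-coding genes of the CXC chemokine cluster (left) and the interleukin-1 cluster (right), in their order along the chromosome, with symbols as in the plot of intensities by array and open points at background (grey band). CXCL1 at 581 and 844 and CXCL2 at 236 and 310.3 in MCF10A are separated by genes in or near the band.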

How the data were processed

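RNA of 4 groups was read on 1 Illumina array each (biotinylated cRNA, per the labels' protocols). The values used are the authors' deposited table of linear intensity, 1 per gene name and array. How it was normalized and how probes were summarized is not given in the sources used here; column medians were 111 to 112, the lowest values 72.4 to 74.0, and no background appeared subtracted. A probe-level table was not used, since its 8 per-sample columns match no sample's labels. Array precision is limited by the number of arrays.

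Background was the mode of each array's values below 140 (kernel density, bandwidth 1.5), 102 on each array, with the SD of values below it (8.13 to 8.27). Intensities were corrected with limma's normexp signal estimate, 16 was added and log2 taken. Where 1 of 2 arrays was above background, the other was set to the lowest value above background on its array, which gives a bound. The test was limma 3.58.1 in R 4.3.3 (lmFit on line plus siRNA, leaving 1 residual degree of freedom; trended eBayes; Benjamini-Hochberg adjustment over 20747 names; prior degrees of freedom estimated as infinite), tested on simulated data. With such a prior each p rests on the spread of genes of like brightness between these arrays, and not on the gene's own spread. The labels name no separate cultures, so no spread between cultures was measured. Neither slide nor scan was used as a block.

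The genes and lists were chosen with earlier results of these data known. Named besides the members were FOXF2, up to 4 genes per list with the largest differences among those above background on both arrays, and genes named by their role or position after their values were seen (CASP1, PYCARD, the receptors, markers and neighbours, and other called list members). List names were matched exactly or through a unique RefSeq synonym; CXCR1 was not matched, and 1 marker gene is not reported here.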

Additional observations from a re-analysis of the deposited data

How the results depend on the processing

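Signs of member differences were the same under the background, offset, scaling, limit and bound settings tried, in each line and between lines under control siRNA. For bounds this was fixed by rule, since a bound of turned sign is left out, and most line differences were bounds. The limit and bound settings also leave measured differences as they are. Only the background, offset and scaling settings could therefore have turned a sign, and only for differences measured on both arrays. The count of 3 members 2-fold different in MCF10A was 1 without background correction, and that of 2 in MDA-MB-231 was 0 without it, with a background fitted to all values and with an offset of 50, since each setting shrinks dim differences. Between lines under control siRNA, 6 members were 2-fold different without background correction and 8 with a looser background limit (upper 5%), against 7. With bounds left out, 2 members could be compared between lines, and 1 instead of 7 was 2-fold different and 1 instead of 7 was called by limma. The 7 became 0 with each gene's own spread, which has 1 residual degree of freedom. The count of 0 for FOXF2 siRNA became 1 (IL1B) without background correction and was 0 in the other settings. Over all names, limma's 2428 line calls were 1226 without background correction, 1450 with bounds left out and 0 with each gene's own spread, and its 45 siRNA calls were 0 both with each gene's own spread and with an untrended prior. No paired analysis was possible because each group has 1 array and no numbered replicates. Signal near background limits precision: the robust SD of like-bright genes was 0.51 for CXCL1 and 0.53 for IL6 in MDA-MB-231.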

Other observations

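Other cytokine genes of the ligand list had line patterns like those of the members. IL11, a relative of IL6 and LIF that signals through IL6ST, had intensities of 911 and 518 in MDA-MB-231 with control and FOXF2 siRNA and of 121 and 119, at background, in MCF10A (fitted log2 difference 4.16, limma adjusted p = 1.49e-47). CLCF1, of the same family, was higher by 2.52 in MDA-MB-231 (818 and 690 against 218 and 189). CSF3, the granulocyte colony-stimulating factor, had 498 and 268 in MCF10A and background values of 104 and 104 in MDA-MB-231 (-3.57, limma adjusted p = 1.15e-24). With FOXF2 siRNA CSF3 was lower in MCF10A (-1.18), where IL1B and CCL20 were also lower, and IL11 was lower in MDA-MB-231 (-0.93), where CSF2 and IL8 were lower. In MDA-MB-231 the chemokine genes CCL11 and CCL2 had opposite differences with FOXF2 siRNA. CCL11 had -1.60 (198 to 123), and CCL2 went from 106, at background, to 173, at least 1.30 higher on the log2 scale. The lower value of CCL11 lay just above the background limit of 121, so the sizes of both differences depend on the background correction. Of 17 ligand genes tested, 3 were higher and 3 lower in MDA-MB-231 (5.75% and 5.95% of all names), and limma called none for FOXF2 siRNA (0 at an unadjusted p under 0.05). Of the 29 ligand genes in the list, 12 were at background on every array, among them TNF, CXCL10 and CCL5. This is no trait of the list, since only 20747 of all 37810 names were above background on at least 1 array.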
